A study of Mus musculus with 4 samples.

Results

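These features are long non-coding RNA (lncRNA) entries that were counted in ovaries of 3-day-old mice and in neither library of ovaries cultured afterwards. Members were chosen on the deposited estimated counts, by a minimum of 10 in both day 3 libraries and a count of 0 in both cultured libraries, a feature missing from a table being taken as 0. The rule found 51 features of the 50821 listed in at least 1 library. The study sequenced total RNA of whole mouse ovary with a strand-specific kit, in 2 groups. The first, titled CK, holds 2 libraries of ovaries taken at 3 days of age, which the labels place before follicle initiation. The second, titled Treat, holds 2 libraries of ovaries also isolated at 3 days and then kept in vitro for 8 days, which the labels place after it. Strain, genotype and the number of animals behind a library are not stated, age and culture differ together between the groups and cannot be told apart, and follicle initiation was assessed by staining of tissue sections, per the labels.

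The ovary of a newborn mouse holds a store of primordial follicles, each a resting oocyte enclosed by flat pre-granulosa cells. Initiation, also called activation, is the step at which the oocyte starts to grow and the surrounding cells become cuboidal and divide. lncRNAs are transcripts without an evident coding sequence, often expressed at low level and in few cell types, and some are known to act in imprinting, in X inactivation and on chromatin. In whole ovaries, fewer cells of a type and less RNA per cell cannot be told apart.

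The deposited tables list features by identifier, and neither prefix occurs in the reference tables at hand (0 of the 51 features matched a gene). Of the members, 27 carry the prefix NONMMUG, used by the NONCODE database for mouse genes, and 24 the prefix LXLOC, which no source used here explains. Symbols, genome positions and sequences are therefore not given, and the ovarian origin of the libraries was not checked against marker genes. The estimated counts of all features summed to between 18215834 and 26566784 per library, with the lower totals in the cultured libraries, and 35707 to 40042 features were listed per library. Cultured library 2 listed the fewest features and cultured library 1 the most.

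The members were sparse at day 3. Their counts in the lower of the 2 day 3 libraries ran from 10 to 60.73 with a median of 15, and 36 of the 51 lay under 20, 7 from 20 to under 30 and 8 at 30 or more. FPKM (the fragment count divided by length in kilobases and by library size) had a median of 0.40 in day 3 library 1, from 0.04 to 3.07, and of 0.30 in day 3 library 2, from 0.06 to 2.19. The mean FPKM over both day 3 libraries was 1 or more for 6 members, from 0.1 to under 1 for 38 and below 0.1 for 7. Together the members held 1307 counts in day 3 library 1 and 1260 in day 3 library 2, or 0.00492% and 0.00479% of all counts. In the cultured libraries they held 0, as the rule requires.

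**Figure D1:**
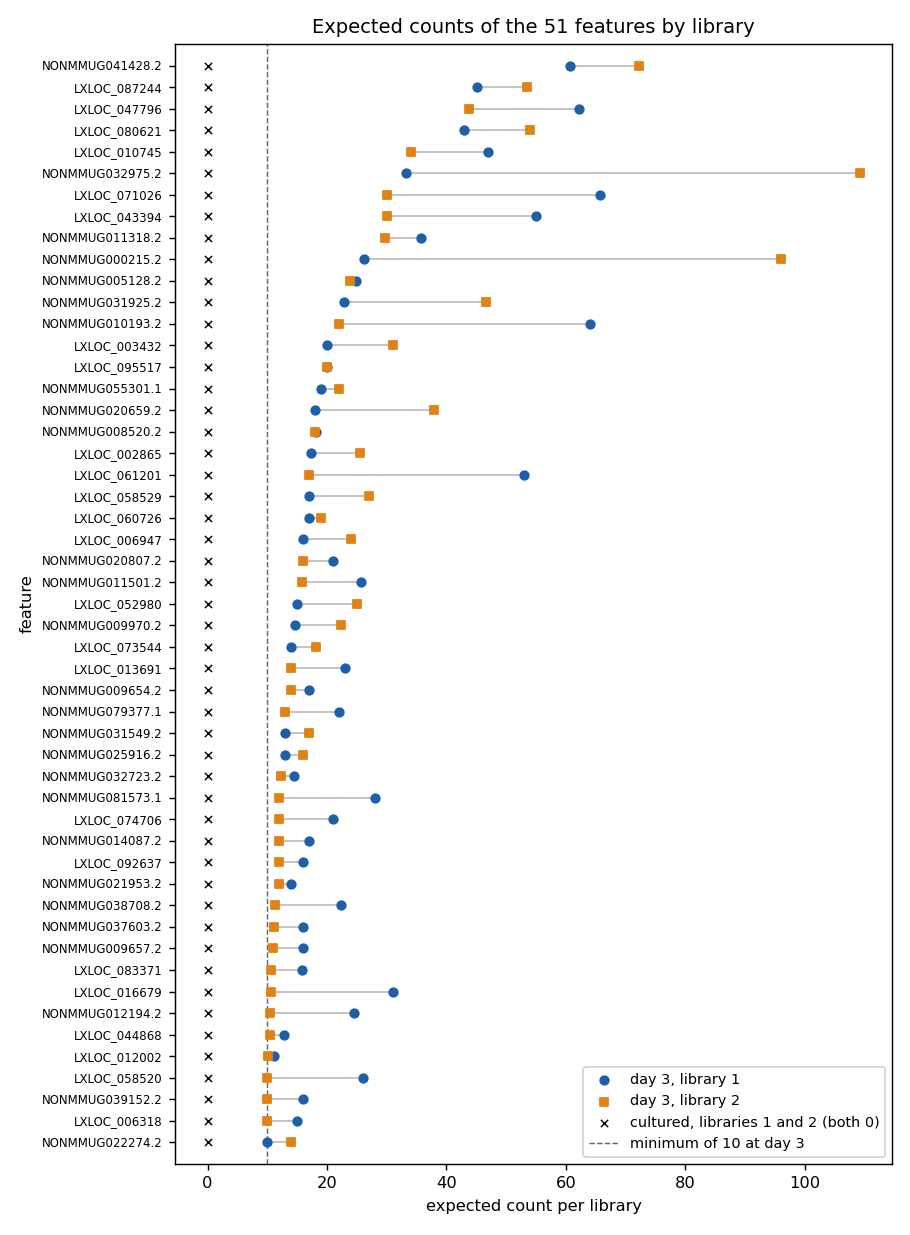
Expected counts (horizontal axis, counts per library) of the 51 features (vertical axis) in day 3 library 1 (circles), day 3 library 2 (squares) and the cultured libraries (crosses, all at 0), ordered by the lower day 3 count. The 36 features with a lower count under 20 crowd near the minimum of 10 (dashed line), and NONMMUG041428.2 alone exceeds 50 in both libraries.

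NONMMUG041428.2, a single transcript of 3086 bases, had the highest count in the lower day 3 library, with 60.73 and 72.23 counts (FPKM 0.41 and 0.49). LXLOC_087244, with 2 transcripts and a mean length of 2333 bases, followed with 45.06 and 53.49 counts (FPKM 0.40 and 0.48). LXLOC_080621, of 1345 bases, had 43 and 54 counts (FPKM 0.68 and 0.86). In these 3 features day 3 library 2 was the higher one, and both cultured libraries were at 0.

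LXLOC_047796, of only 471 bases, had the highest FPKM of all members, 2.63 ± 0.62 (SD, n = 2), from 62.21 and 43.76 counts. LXLOC_010745, of 562 bases, had FPKM 1.65 ± 0.361 (SD, n = 2), from 47 and 34 counts. Both were higher in day 3 library 1, and their short length sets them at the top by FPKM while NONMMUG041428.2 leads by the count in the lower day 3 library.

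NONMMUG032975.2, of 1501 bases, had 33.29 and 109.25 counts (FPKM 0.47 and 1.55). LXLOC_071026, of 3488 bases, had 65.79 and 30.07 counts (FPKM 0.39 and 0.18), and LXLOC_043394, of 2218 bases, had 55 and 30 counts (FPKM 0.52 and 0.28). The day 3 libraries differed by more than counting error in all 3, with NONMMUG032975.2 higher in library 2 and the other two higher in library 1.

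The fold between groups has only a lower bound here, taken against 3 counts in each cultured library. That floor is the upper limit that a count of 0 allows (counting error only). The day 3 side is the mean of the observed rates without its own counting error, so the bounds carry no stated confidence. With TMM scaling (trimmed mean of M-values) the bounds ran from at least 3.79-fold to at least 24.99-fold lower after culture, with a median of 6.61, and 13 members had a bound of 10 or more. Scaled by the FPKM totals they ran from at least 3.08-fold to at least 20.6-fold, with a median of 5.37. The highest bound in both scalings belonged to NONMMUG032975.2 and rested on day 3 library 2, being at least 37.9-fold without day 3 library 1 and at least 12.1-fold without day 3 library 2. The next was NONMMUG041428.2, at least 23.6-fold lower with TMM scaling and at least 19.2-fold with the FPKM totals. LXLOC_012002, with 11.10 and 10.18 counts, had the lowest bound.

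A zero in these tables is not equally strict for every feature. The smallest FPKM listed is 0.01 in every library, though counts as low as 0.08 were listed in cultured library 2. No listed feature has an FPKM that rounds to 0, so a feature below that level would be missing and read as 0. The floor of 3 counts makes no allowance for this. A feature at FPKM 0.005 would hold 1 or more counts in a cultured library for 3 members. LXLOC_002865, with 12 transcripts and a mean length of 8781 bases, could hold up to 1.93 counts in cultured library 1 below that value, against 17.37 and 25.52 counts at day 3. The other two were NONMMUG031549.2 (5677 bases, 13 and 17 counts) and LXLOC_073544 (4820 bases, 14.05 and 18.13 counts), both also near the minimum at day 3.

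The members nearest inside the minimum were NONMMUG022274.2 with 10 and 14 counts, LXLOC_006318 with 15 and 10, and NONMMUG039152.2 with 16 and 10. Just outside it lay LXLOC_087271 with 41.71 and 9.80 counts, LXLOC_069856 with 27 and 9, and NONMMUG001300.2 with 11 and 9, each at 0 after culture. Those that missed the rule only through a trace after culture included NONMMUG007200.2, with 20.56 and 24.86 counts at day 3 and 0 and 0.65 after culture. NONMMUG042355.2 had 21.24 and 19.48 counts at day 3 and 0.88 and 0 after culture, and NONMMUG008484.2 had 149.69 and 341.32 at day 3 and 0 and 0.80 after culture. In all, 41 further features met the day 3 minimum and had at most 1 count in each cultured library. The day 3 minimum was met by 15011 features, of which 140 were unlisted in cultured library 1, 196 in cultured library 2 and 51 in both.

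The features most abundant at day 3 were outside the rule. Among those with at most 1 count in each cultured library, LXLOC_020844 had 189 and 192 counts at day 3 and 1 and 0 after culture, and LXLOC_006354 had 175 and 147 at day 3 and 1 and 1 after culture. No feature with 100 or more counts in both day 3 libraries, of 2480, was unlisted in both cultured libraries.

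The whole table was fitted with edgeR's quasi-likelihood test (adjusted p below 0.05, Benjamini-Hochberg, 2 libraries against 2). Only 11 of the 51 members passed the filter of FPKM 0.5 in at least 2 libraries. All 11 were called lower, where 8.50% of the 8557 features tested were (727 lower, 502 higher). With the FPKM totals as scale 276 of 700 called features were lower, and over all features tested the median log2 fold change moved from 0.08 to 0.45. Without a filter all 51 were called lower, where 2.77% of the 50821 features were. The members were selected on this same contrast, so these calls describe the rule and nothing is read from them. Since no label names the animals behind each library, p-values here measure the spread between libraries, which may be technical.

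The 2 day 3 libraries were then compared within the members. Day 3 library 1 was the higher one in 31 members and day 3 library 2 in 20, after division by the library totals, with a median log2 ratio (library 2 over library 1) of -0.26. Over 10887 other features in the same range of the lower day 3 count, library 2 was higher in 6165 and library 1 in 4722, with a median of 0.09. The SD of the log2 ratio was 0.79 in the members and 0.65 in the others, and the libraries were 2-fold or more apart in 11 of 51 members (21.6%) and in 12.2% of the others. Within the classes the directions differed. LXLOC members were 2-fold or more apart in 16.7% and other LXLOC features in 22.3%, with SDs of 0.72 and 0.84, while NONMMUG members were in 25.9% and other NONMMUG features in 11.2%, with SDs of 0.84 and 0.63. The sets share a range of the lower day 3 count but not its distribution. Its median was 15 in the members and 22 in the others, and 14 and 22 among NONMMUG features. Ratios of smaller counts spread more by counting error, so the members are not shown to be less reproducible. These differences were not tested, since features of 1 pair of libraries are not replicates.

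**Figure D2:**
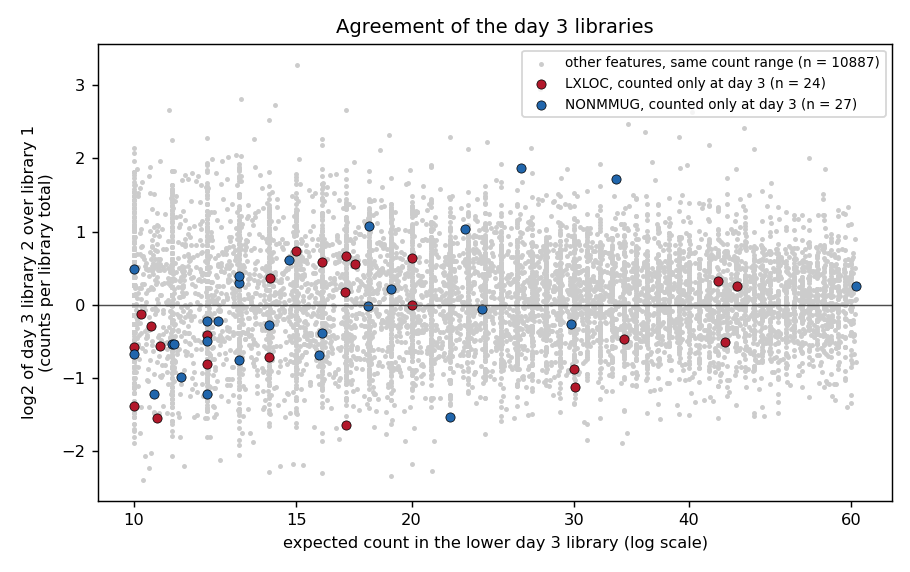
Log2 ratio of day 3 library 2 to library 1 (vertical axis, counts per library total) against the count in the lower day 3 library (horizontal axis, log scale) for the 24 LXLOC and 27 NONMMUG members and 10887 other features. Members scatter on both sides of 0, with 31 below and 20 above.

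In 12 members the 95% exact binomial interval of the ratio, which covers counting error only, lay wholly on one side of 1. NONMMUG000215.2, of 1046 bases, had the largest ratio, 3.67 (2.38 to 5.96), from 26.26 and 95.99 counts (FPKM 0.54 and 1.99). NONMMUG032975.2 had a ratio of 3.29 (2.23 to 5.05), and NONMMUG020659.2 (18 and 38 counts) and NONMMUG031925.2 (22.88 and 46.59 counts) were the other two higher in library 2. LXLOC_061201, of 1646 bases, had the smallest ratio, 0.322 (0.175 to 0.565), from 53 and 17 counts, and NONMMUG010193.2, of 2274 bases, had 0.345 (0.202 to 0.568), from 64 and 22. The remaining 6, all higher in library 1, were LXLOC_071026, LXLOC_043394, LXLOC_016679, LXLOC_058520, NONMMUG012194.2 and NONMMUG081573.1. At the other end, LXLOC_095517 had 20 counts in each library, NONMMUG008520.2 had 18.15 and 17.94, and NONMMUG005128.2 had 24.86 and 23.82. In 28 members the ratio lay within 1.5-fold. Neither this count nor the 12 was taken over the other features. The day 3 libraries differed by more than sampling noise over the whole table, so neither count is read as a trait of the members.

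LXLOC features made up 24 of the 51 members (47.1%) and 9.11% of the other features in the same count range. The share among features that met the rule fell to 31.3% without day 3 library 1 (42 of 134) and 31.6% without cultured library 1 (62 of 196), and was 34.9% without day 3 library 2 (44 of 126) and 46.4% without cultured library 2 (65 of 140). At a minimum of 5 counts it was 30.8% (45 of 146). Read the other way, 24 of 1642 LXLOC features that met the day 3 minimum were unlisted in both cultured libraries (1.46%), and 27 of 13369 NONMMUG features were (0.202%). LXLOC features had the larger share in each count class under 50. From 10 to under 15 counts the shares were 10 of 232 LXLOC features (4.31%) and 15 of 2608 NONMMUG features (0.575%). From 15 to under 20 they were 6 of 186 (3.23%) and 5 of 1758 (0.284%), and from 20 to under 30 they were 2 of 245 (0.816%) and 5 of 2320 (0.216%). From 30 to under 50 they were 6 of 275 (2.18%) and 1 of 2474 (0.0404%). NONMMUG041428.2 was the only member above that, among 249 LXLOC and 2184 NONMMUG features from 50 to under 100. The class is no part of the rule. Over the whole table LXLOC features were also called lower more often than NONMMUG features, 15.9% against 1.84% with no filter and 24.7% against 5.63% with the FPKM filter. A higher share of LXLOC features is therefore not particular to the members. Whether the size of the gap is was not tested.

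**Figure D3:**
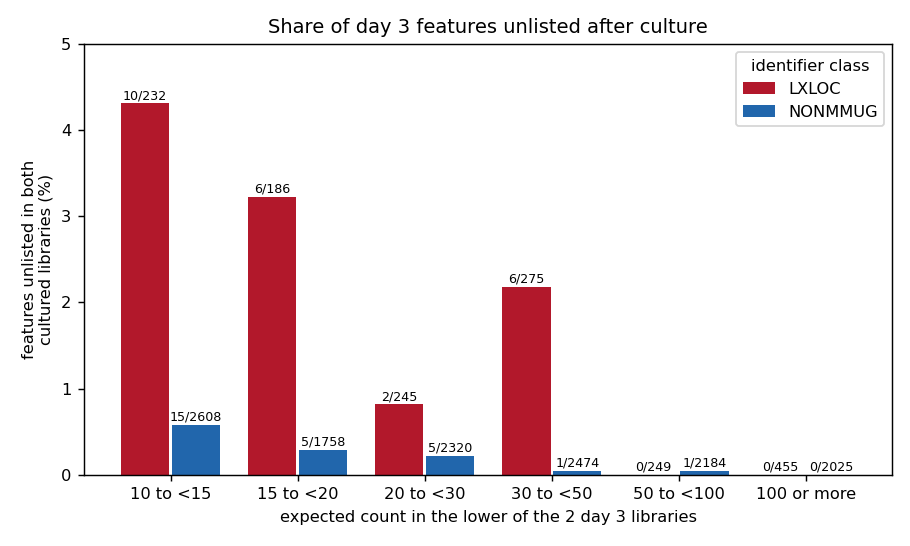
Share of features that met the day 3 minimum and were unlisted in both cultured libraries (vertical axis, percent) by the count in the lower day 3 library (horizontal axis, classes) for LXLOC and NONMMUG identifiers, with members over features above each bar. The LXLOC bar is the higher one in the 4 classes under 50 counts, and 0 of 2025 NONMMUG and 0 of 455 LXLOC features at 100 or more were unlisted.

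Members were shorter than other features of the same count range, with a median length of 1299 bases against 1967, and ran from 319 bases (NONMMUG038708.2, 22.38 and 11.25 counts) to 8781 bases (LXLOC_002865). The members hold more LXLOC features (47.1% against 9.11%), which are the shorter class, so the overall gap partly reflects the mix of classes. Within the classes a gap was seen only among NONMMUG features. NONMMUG members had a median of 1299 bases and other NONMMUG features one of 2040 bases, while LXLOC members had a median of 1215 bases and other LXLOC features one of 1205 bases. Among NONMMUG features of this count range the unlisted share was 1.42% under 500 bases (3 of 211), 0.46% from 500 to under 1000 (6 of 1303), 0.271% from 1000 to under 2000 (9 of 3318), 0.185% from 2000 to under 4000 (8 of 4323) and 0.13% at 4000 or more (1 of 767). Among LXLOC features it was 1.10% under 500 bases (1 of 91) and between 2.22% and 2.69% in the longer classes. Length differed between the classes, and the share of LXLOC features was the higher one in every length class from 500 bases on, but not below.

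**Figure D4:**
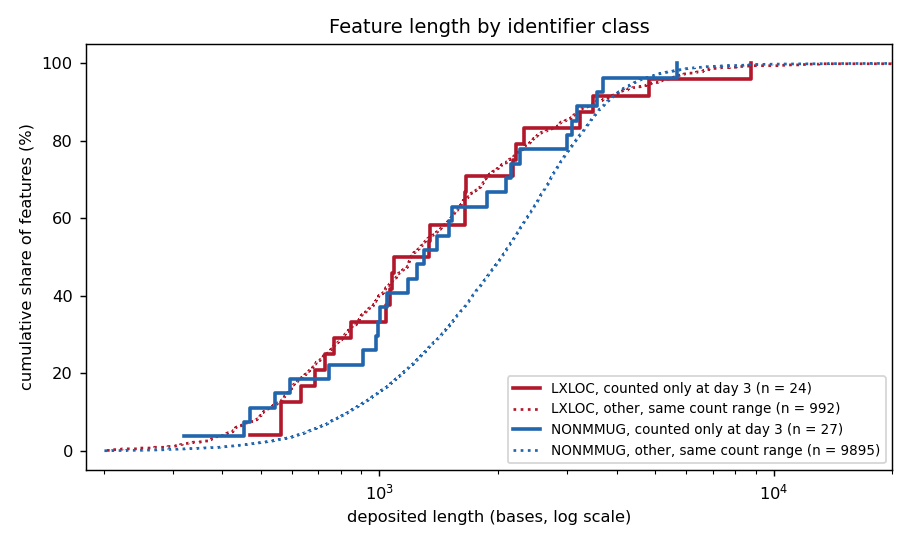
Cumulative share of features (vertical axis, percent) by deposited length (horizontal axis, bases, log scale) for members (solid) and other features of the same count range (dotted). The LXLOC curves lie close together, with medians of 1215 and 1205 bases, and the NONMMUG members lie to the left of the other NONMMUG features, with medians of 1299 and 2040 bases.

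Most members had a single transcript, 40 of 51 (78.4%), as did 79.6% of the other features of the same count range. Of the 11 with several, LXLOC_002865 had the most (12), followed by NONMMUG012194.2 with 7 (24.50 and 10.50 counts) and NONMMUG039152.2 with 6. The deposited length, a mean weighted over transcripts, differed between the day 3 libraries in 6 of the 11. In NONMMUG009970.2, with 3 transcripts, it was 1274 bases in library 1 and 740 bases in library 2, with FPKM 0.25 and 0.67 from 14.71 and 22.39 counts. No members of equal length had counts within 10% of each other. LXLOC_010745 and LXLOC_013691 were both of 562 bases, but the second had 23 and 14 counts.

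Features numbered next to a member, which the rule did not use, were examined in the same whole-table fit. Of 39 listed features 1 number above or below a member, 6 passed the FPKM filter and 2 of these were called lower, where 8.50% of all tested features were. NONMMUG009969.2, beside NONMMUG009970.2, had 118 and 177 counts at day 3 and 89 and 32 after culture (log2 fold change -1.52, edgeR adjusted p = 0.0317). NONMMUG012193.2, beside NONMMUG012194.2, had 65.4 and 84.72 counts at day 3 and 30.4 and 29.16 after culture (log2 fold change -1.45, edgeR adjusted p = 0.0425). Neither was called with the FPKM totals as scale. Leaving out day 3 library 2 left 0 called, and leaving out day 3 library 1, cultured library 1 or cultured library 2 left 1 each. The other 4 tested neighbours had higher means after culture, with log2 fold changes of 0.60 to 1.02 and adjusted p from 0.156 to 0.449 (edgeR), so none was called. One of them, NONMMUG041427.2, is numbered beside NONMMUG041428.2, the member with the highest lower count, and had 51 and 103 counts at day 3 and 176 and 107 after culture.

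Without a filter 6 of the 39 neighbours were called lower (15.4%), where 2.77% of all listed features were, and 0 higher. Of these 6, 3 lay beside NONMMUG009654.2 or NONMMUG009657.2, and apart from that stretch 3 of 35 were called lower (8.57%). The 2.77% is not matched for class. By class, 1 of 10 LXLOC neighbours was called lower (10.0%), where 15.9% of all LXLOC features were. Of 29 NONMMUG neighbours 5 were (17.2%), and 2 of 25 apart from that stretch (8.0%), where 1.84% of all NONMMUG features were.

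Within 5 numbers of a member, again without a filter, 7 of 47 LXLOC features were called lower (14.9%), close to the 15.9% of all 3362 LXLOC features. Of 146 NONMMUG features 15 were called lower (10.3%), where 1.84% of all 47459 NONMMUG features were. Of these 15, 6 lay around NONMMUG009654.2 and NONMMUG009657.2 and 5 around NONMMUG009970.2, and the other 126 features gave 4 (3.17%). Over both classes, 3 of the 193 features within 5 numbers were called higher, where 2.23% of all listed features were. Whether neighbouring numbers lie side by side in the genome was not checked, and neighbours may share a locus and count as fewer than their number.

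The members NONMMUG009654.2 (1876 bases, 17 and 14 counts at day 3) and NONMMUG009657.2 (2999 bases, 16 and 11 counts) are 3 numbers apart and lay in the longest unbroken run of listed features with a lower mean FPKM after culture in the whole table. The run was noticed in these data and is described without a test. It held 32 features, from NONMMUG009636.2 to NONMMUG009668.2, allowing 1 missing number between neighbours. No other run was as long, and the next longest that held a member had 12. The median run length was 1 over members and 2 over other features lower after culture. Both day 3 FPKM values lay above both cultured values in 25 of the 32, where 12.4% of all listed features showed this. Since a lower mean defines the run, nothing is read from that count.

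Apart from the 2 members, the 30 other features of the run held 400.62 and 483.9 counts in the day 3 libraries and 53.82 and 17.53 counts in the cultured libraries. The summed rate was 14.9-fold lower after culture with TMM scaling and 11.0-fold lower with the FPKM totals, in a direction fixed by how the run was found. The cultured libraries differed, with a summed rate 7.38-fold lower in library 1 and 21.2-fold lower in library 2 on the FPKM totals. With TMM scaling these were 11.3-fold and 21.8-fold. NONMMUG009642.2, of 2987 bases, had the most counts, 45 and 60 at day 3 and 5 and 2 after culture. NONMMUG009649.2 had 21 counts in each day 3 library and 0 and 1 after culture, and NONMMUG009651.2 had 20 and 36 and then 1 and 0. NONMMUG009655.2, between the members, had 19 and 34 counts at day 3 and 2 and 0 after culture. No feature of the run had more than 5 counts in a cultured library. In all, 7 of the 32 were at 0 in both cultured libraries, the 2 members among them, and the others of these 7 had under 10 counts in each day 3 library. No feature of the run reached FPKM 0.5 in 2 libraries, so none entered the filtered test. Outside the run, NONMMUG009635.2 (16.56 and 26.83 counts at day 3, 25.45 and 13.94 after culture) and NONMMUG009669.2 (0 and 2, then 13 and 4) stood on either side without a lower mean FPKM after culture. The lower edge is not sharp. NONMMUG009635.2, at FPKM 0.13 and 0.21 in the day 3 libraries and 0.22 and 0.13 in the cultured ones, missed the run narrowly, and the next listed features below it were lower after culture, NONMMUG009634.2 with 11 and 6 counts at day 3 and 4.56 and 0 after culture, and NONMMUG009632.2 with 16 and 3 and then 1 and 0.

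**Figure D5:**
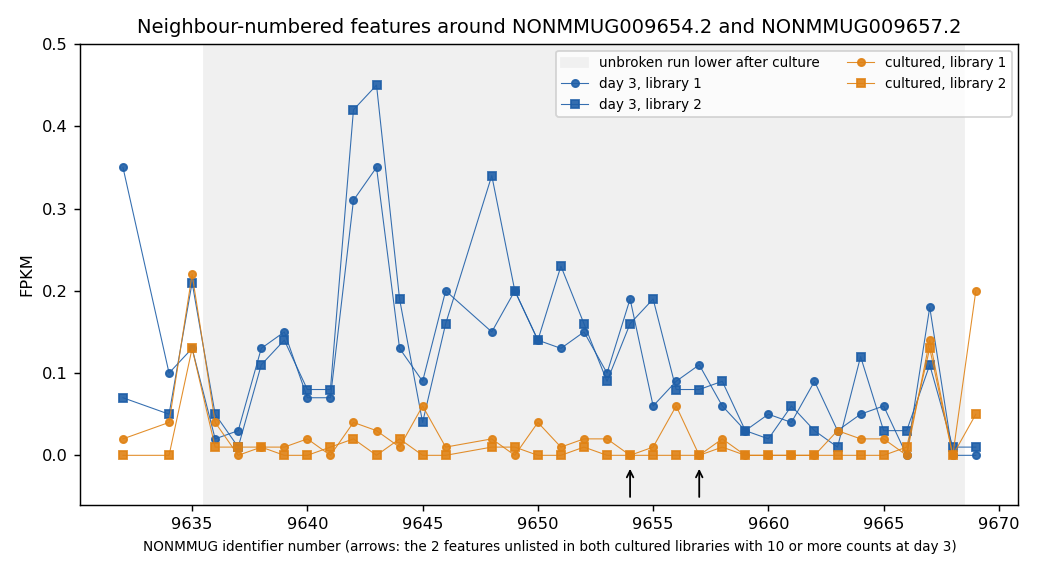
FPKM (vertical axis) of features by NONMMUG identifier number (horizontal axis) in the 2 day 3 libraries and the 2 cultured libraries, with the run of 32 features shaded and the 2 members marked by arrows. The day 3 points lie above the cultured points in 25 of the 32 features, and features below the shaded run, such as NONMMUG009634.2, also had higher day 3 values.

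Some other members lay in shorter runs of the same kind, though the median run length over members was only 1. How often features that are not members lie in runs of such lengths was not counted. NONMMUG009970.2 lay among 12 features, of which the most abundant, NONMMUG009968.2 (2065 bases), stood at FPKM 74.88 and 78.83 in the day 3 libraries and at 25.22 and 16.05 in the cultured ones (log2 fold change -2.12, edgeR adjusted p = 0.00301). LXLOC_058520 (26 and 10 counts) lay among 7 features. In that run LXLOC_058524, of 4419 bases, had 520 and 325 counts at day 3 and 88 and 127 after culture (log2 fold change -2.03, edgeR adjusted p = 0.00852). A further member, LXLOC_058529 (17 and 27 counts), is numbered 9 above LXLOC_058520 and lay outside that run. LXLOC_006318 lay among 11 features. There LXLOC_006320 had 31 and 6 counts at day 3 and 0 in both cultured libraries and so missed the rule only by its count in day 3 library 2.

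The mirror rule, 10 or more counts in both cultured libraries and 0 in both day 3 libraries, held for 57 features, 0.382% of the 14940 that met the minimum after culture, against 0.340% for the members. Of these 57, 8 (14.0%) were LXLOC features, against 24 of 51 here, and their median length was 1546 bases. Both sets were chosen on the same libraries, and the difference between them was not tested.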

How the data were processed

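The authors deposited 1 table per library, 4 in all, whose columns hold a feature's expected count, FPKM and length, per the file headers. HISAT, Cufflinks and build mm9 are named in the submitters' processing notes. The counting tool, and whether counting used strand, are not stated there. The authors' FPKM values divide a count by length and by a library total. That total was recovered from the ratio of count to FPKM over features of 500 counts and 1000 bases or more, and gave 41410677 to 49357745 per library. Tables were joined on the identifier, and a missing row was taken as 0.

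Rounded expected counts were tested with edgeR 4.0.16 (R 4.3.3, TMM, quasi-likelihood F test, two-sided), with DESeq2 1.42.0 as an alternative. Ratio intervals are exact binomial (scipy 1.17.1). Libraries of a group differed by more than sampling noise (chi-square per degree of freedom 15.8 at day 3 and 27.0 after culture) and were kept separate. Intervals and floors cover counting error only, since reads were not tagged by molecule.

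Named features are the 8 members with the highest count in the lower day 3 library, the longest and shortest, those with the most transcripts, those sharing a length or following each other in number, those nearest the threshold, and neighbours called lower. Others were named after their values were seen. The members and lists were chosen with earlier results of these data known. No marker or gene list was used, since no identifier matched a symbol.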

Additional observations from a re-analysis of the deposited data

How the results depend on the processing

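The number of members follows the rule: 146 features met it at a minimum of 5 counts, 15 at 20, 1 at 50, 14 with FPKM 0.5 in place of the count, and 92 with at most 1 cultured count. Leaving out a library loosens the rule and gave 126 to 196, of which 134 and 126 were without day 3 libraries 1 and 2, and 196 and 140 without cultured libraries 1 and 2. Rounding the counts first gave 52. No members had equal length and counts within 10%, so keeping 1 feature per such set removed none. Over the whole table, against 1229 called features of which 727 were lower, 700 (276 lower) were called with the FPKM totals, 2540 (1407 lower) with no filter and 744 (435 lower) at FPKM 1. Leaving out each library gave 586 to 1260 called and 354 to 848 lower. The replicate block gave 1204 called, 707 of them lower, and 2 neighbours called lower, as without it. No label says that equal replicate numbers mark a pairing, and deviations of same-numbered libraries had r = -0.12 (8557 features). The neighbours called lower, 2 of the 6 tested, were 0 with the FPKM totals, 1 with DESeq2, 6 with no filter, 10 within 5 numbers, and 0 to 1 with a library left out. The filters change how many features are tested, and for the other settings the cause was not tested. Of 48 recomputed bounds for the 8 members with the highest lower counts, 45 stayed within 1.5 times, over a range of 10.4 to 37.9. Most of these could hardly move. The members are at 0 after culture, so another scaling or a cultured library left out shifts every bound by nearly the same factor. Only leaving out a day 3 library could move single bounds apart, so the 45 are not read as stability. The 3 others were NONMMUG032975.2 without day 3 library 1 (37.9) or 2 (12.1) and LXLOC_071026 without day 3 library 1 (10.4). In the run of 32 features, 29 to 32 were lower after culture with a library left out and 32 with TMM-scaled counts, an alternative chosen after seeing the data. These recounts keep features already chosen for a lower mean, and TMM scaling sets cultured values lower than the FPKM totals do, so nothing is read from them. The run was not rebuilt. With TMM scaling and no filter, NONMMUG009635.2, just below the run, also had a negative log2 fold change (-0.40), so its extent depends on the scaling. Counts of 10 to 20 per library limit the bounds of most members to under 10-fold.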
